A study of Homo sapiens with 11 samples.

Results

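The E proteins TCF3, TCF4 and TCF12 and the ID inhibitors ID1, ID2 and ID3 were examined in 11 T-cell acute lymphoblastic leukemia (T-ALL) cell lines, each profiled once on an HG U133 Plus 2.0 array. Members were read from probe sets with a single gene symbol. These 6 of 19775 genes had 30 such probe sets among the 54613 analysed. The brightest probe set, by its mean across lines, represented a gene, here 209153_s_at (TCF3), 212386_at (TCF4), 208986_at (TCF12), 208937_s_at (ID1), 201565_s_at (ID2) and 207826_s_at (ID3). The study sorted the lines by activity of NKL homeobox genes, a subclass of homeobox transcription factors. The NKL-positive lines were PEER, JURKAT, LOUCY, HPB-ALL, ALL-SIL and CCRF-CEM, and the NKL-negative lines were SUP-T1, CML-T1, MOLT-16, MOLT-14 and MOLT-4. No line carried a treatment in the labels. JURKAT was left out of the group comparison, as in the study. Each group then held 5 lines. Each line is an established tumor line and differs from the others in many ways besides NKL expression. With 1 array per line, a level of a line carries no error, small gaps in an order of lines cannot be judged, and the spread of a group is that between different lines. In bulk RNA, fewer cells of a type and less RNA per cell cannot be told apart.

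E proteins are basic helix-loop-helix (bHLH) transcription factors that bind the E-box motif CANNTG as dimers, alone or with tissue-restricted bHLH partners such as TAL1. ID proteins have the helix-loop-helix part but lack the basic region that contacts DNA, so that dimers with them cannot bind an E-box. In the thymus, E proteins drive T-cell specification, rearrangement of receptor genes and the expression of pre-TCR genes, and signals through pre-TCR and TCR raise ID3. ID2 is known for its role in NK-cells and other innate lymphoid cells, and ID1 as a target of BMP signals. TCF3 encodes the splice forms E12 and E47, TCF4 encodes E2-2 and TCF12 encodes HEB.

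In GRCh38.p14, RefSeq places TCF3 at chr19:1609292-1652615, TCF4 at chr18:55222185-55635957 and TCF12 at chr15:56918090-57291310. The ID genes are compact and lie at chr20:31605289-31606510 (ID1), chr2:8682056-8684461 (ID2) and chr1:23557926-23559501 (ID3). The 250 bases before the start of each ID gene are shown because E-boxes are the motif that E proteins read and because the levels of the ID genes ran apart between lines. They cover chr20:31605039-31605288 (plus strand, ID1), chr2:8681806-8682055 (plus strand, ID2) and chr1:23559502-23559751 (minus strand, ID3), are taken from RefSeq on GRCh38.p14 and run 5′ to 3′ toward the start. Capitals mark the E-box CANNTG, the TATA box letters TATAAA and the CCAAT box letters ATTGG, each on either strand. In ID1, TATAAA and its complement overlap.
ID1: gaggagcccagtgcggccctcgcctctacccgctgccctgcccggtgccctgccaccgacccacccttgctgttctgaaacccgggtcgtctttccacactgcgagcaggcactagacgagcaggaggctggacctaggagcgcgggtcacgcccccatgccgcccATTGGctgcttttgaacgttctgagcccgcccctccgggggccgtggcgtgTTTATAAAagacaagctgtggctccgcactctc
ID2: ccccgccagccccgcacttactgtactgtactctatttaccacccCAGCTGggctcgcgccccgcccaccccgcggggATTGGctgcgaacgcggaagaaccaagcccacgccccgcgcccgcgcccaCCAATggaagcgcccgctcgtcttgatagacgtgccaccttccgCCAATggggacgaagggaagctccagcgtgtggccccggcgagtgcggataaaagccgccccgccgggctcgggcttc
ID3: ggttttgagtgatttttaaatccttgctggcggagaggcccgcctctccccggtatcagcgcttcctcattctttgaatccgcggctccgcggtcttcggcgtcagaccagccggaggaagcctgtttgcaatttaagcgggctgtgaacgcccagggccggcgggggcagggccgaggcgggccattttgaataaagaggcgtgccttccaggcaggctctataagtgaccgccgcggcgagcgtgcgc
Their GC content was 66.0% (ID1), 69.2% (ID2) and 62.0% (ID3), against a median of 58.0% over 35116 RefSeq promoter windows of the same length. The ID2 window held 1 E-box, a CAGCTG at 205 bases before the start, and the other two windows held no CANNTG. A CANNTG is present in 61.8% of all windows and CAGCTG in 14.0%. ID1 carried a TATAAA at 31 bases (10.7% of windows have TATAAA) and an ATTGG at 84 bases, and ID2 carried ATTGG or its complement at 172, 122 and 78 bases (32.0% of windows have it). The ID3 window held none of the motifs marked. Among the windows of the E protein genes, 5 of 10 of TCF4, 2 of 5 of TCF12 and 0 of 1 of TCF3 contained CANNTG. These matches describe the letters in the windows alone.

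Transcript levels below are log2 signals, and the level of 1 gene cannot be set against that of another because probes differ in brightness. Array medians ran from 4.63 to 4.76 and lower quartiles from 3.45 to 3.60, and values at or below the lower quartile of their array have no order. T-cell markers were present throughout, with 9 to 10 of 10 above the array median in every line. Of the markers of other cells, 2 to 4 of 5 for B-cells, 0 to 2 of 5 for myeloid cells, 0 to 3 of 4 for NK-cells and 0 to 1 of 3 for erythroid cells were above it. Among the B-cell genes, CD79A was above the array median in 11 lines, CD22 in 8, PAX5 in 7, CD79B in 6 and MS4A1 in 2. Of the myeloid genes, MPO, CD14 and ELANE were above it in 0 lines, LYZ in 2 and CSF1R in 4, and of the erythroid genes KLF1 and ALAS2 were above it in 0 lines and HBB in 7. The poly-A spike-in controls, bacterial transcripts added during labelling, averaged 5.65 to 8.76 in 8 lines and 2.99 to 3.12, that is background, in MOLT-16, CML-T1 and HPB-ALL. Group differences of the members are therefore given with and without these 3 lines, as are differences of other named genes and correlations that moved.

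The 3 E protein genes differed in how much they varied. TCF3 and TCF12 were above the array median in every line, whereas TCF4 varied between high and background levels. TCF3 was 10.77 in JURKAT, 10.73 in MOLT-14, 10.47 in ALL-SIL, 10.45 in MOLT-4, 10.24 in PEER, 9.98 in HPB-ALL, 9.96 in CML-T1, 9.47 in CCRF-CEM, 9.47 in MOLT-16, 9.35 in LOUCY and 9.14 in SUP-T1. JURKAT and MOLT-14 were at the upper end and SUP-T1 at the lower end, and the lines of both NKL groups were interleaved. TCF12 was 11.82 in JURKAT, 11.40 in HPB-ALL, 11.14 in CML-T1, 10.75 in SUP-T1, 10.54 in MOLT-4, 10.40 in MOLT-16, 10.38 in ALL-SIL, 10.10 in PEER, 10.01 in CCRF-CEM, 9.79 in LOUCY and 9.59 in MOLT-14. JURKAT and HPB-ALL led for TCF12 and MOLT-14, a line with high TCF3, was the lowest. JURKAT was the highest line on the other 3 TCF12 probe sets as well. Of these, 215611_at and 233678_at correlated with the one used at 0.90 and 0.79, and 238041_at at 0.20 (n = 11), with CML-T1 the lowest there at 6.84 and MOLT-14 at 7.30. The range over the lines was 1.63 for TCF3 and 2.23 for TCF12, larger than those of 48.4% and 70.6% of all genes, whose median range was 1.66.

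TCF4 was 9.17 in HPB-ALL, 8.19 in LOUCY, 8.07 in MOLT-4, 7.86 in MOLT-14, 7.54 in PEER, 7.52 in CML-T1, 6.09 in CCRF-CEM, 5.81 in JURKAT, 3.58 in MOLT-16, 3.34 in ALL-SIL and 3.28 in SUP-T1. The lowest 3 lines were 1 NKL-positive and 2 NKL-negative line. ALL-SIL and SUP-T1 were below the lower quartile of their arrays and so have no order, and MOLT-16 was just above it (3.52). CCRF-CEM and JURKAT formed an intermediate level. The range of 5.89 exceeded that of 97.3% of all genes. Of the other 7 probe sets of TCF4, 6 correlated with the one used at 0.86 to 0.98 and 228837_at, at or below the lower quartile in 8 lines, at 0.58 (n = 11). On the second brightest, 213891_s_at, ALL-SIL and SUP-T1 were again low at 3.31 and 3.23, whereas MOLT-16 was 5.13, above its array median of 4.63 and next to CCRF-CEM at 5.04.

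Most TCF3 probe sets did not share the profile of the one used. Of the 13 others, 215260_s_at correlated with the one used at 0.81 and the remaining ones at 0.03 to 0.41 (n = 11). Several carry the suffix x_at, which marks probes that also match other transcripts. Some differed by the poly-A controls. Probe set 213809_x_at averaged 3.47 (3.15 to 3.73) in MOLT-16, CML-T1 and HPB-ALL and 5.31 (4.91 to 5.78) in the other 8 lines, with no overlap, whereas the probe set used averaged 9.80 and 10.08. The part of the controls in this was not tested. SUP-T1, the lowest line on the probe set used, was 9.78 on 213811_x_at and 9.72 on 210776_x_at, against medians of 9.70 and 9.63 over the lines. Both of these probe sets resembled each other, with MOLT-16 the lowest line on each (9.10 and 9.06). LOUCY, 9.35 on the probe set used, was 10.19 and 10.13 on them. Statements on TCF3 below refer to 209153_s_at and are given with the other probe sets where these differ.

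**Figure D1:**
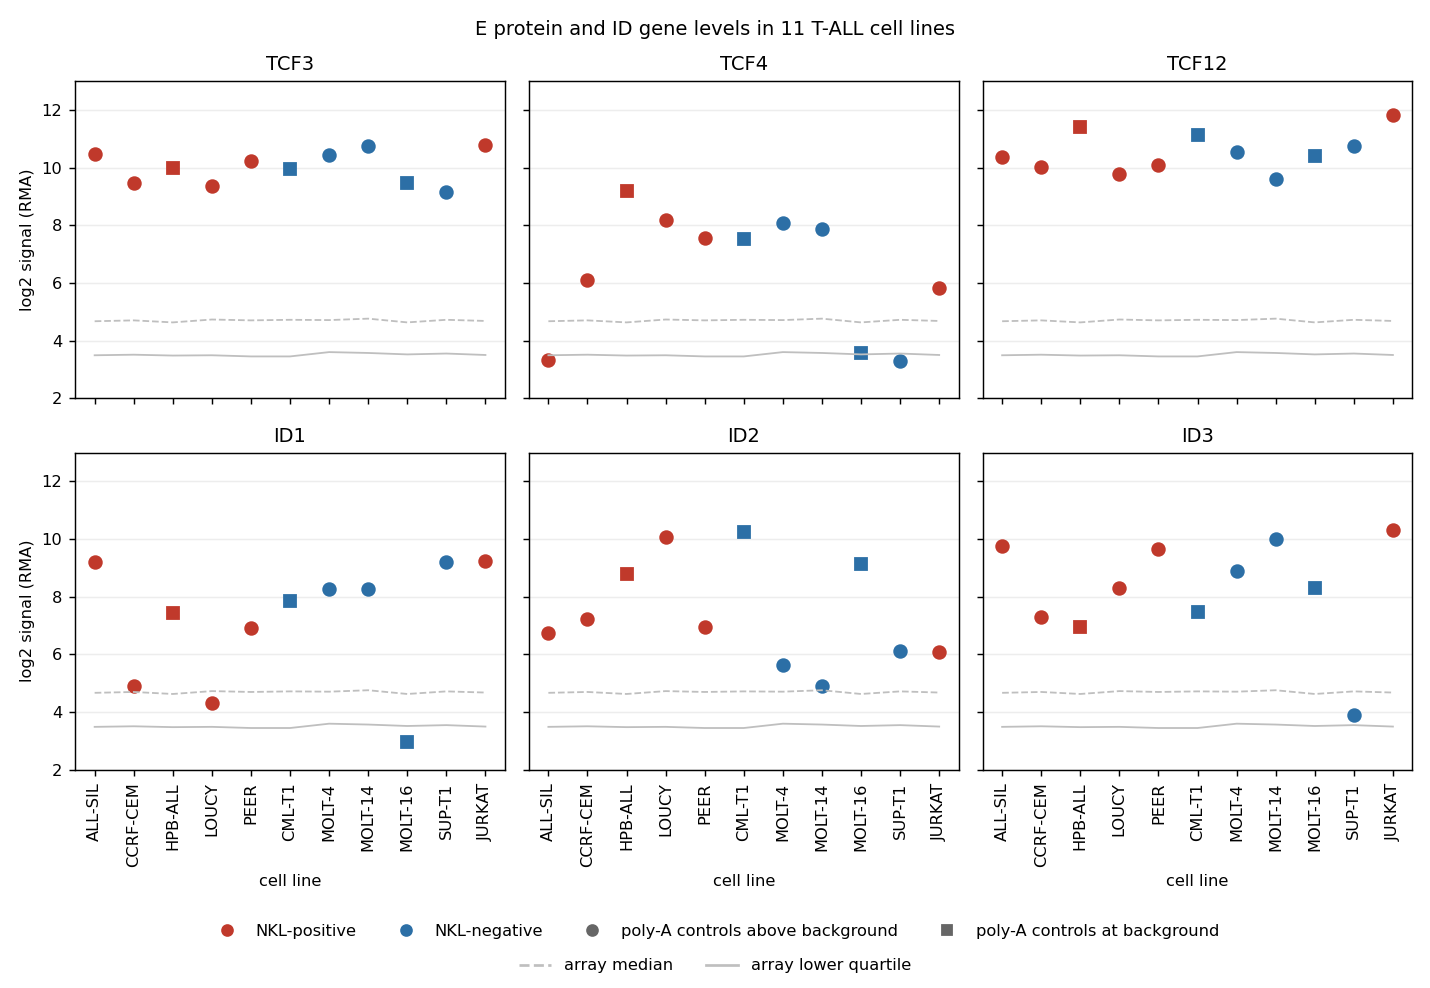
Levels of TCF3, TCF4, TCF12, ID1, ID2 and ID3 in the 11 lines, as log2 signal on the vertical axis, 1 point per line from 1 array. Red points are NKL-positive and blue points NKL-negative lines, squares are lines whose poly-A controls were at background, and the grey lines give the median (dashed) and lower quartile of each array. TCF3 and TCF12 stayed between 9.14 and 11.82, whereas TCF4 fell to 3.28, ID1 to 2.96 and ID3 to 3.91 in single lines.

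**Figure D2:**
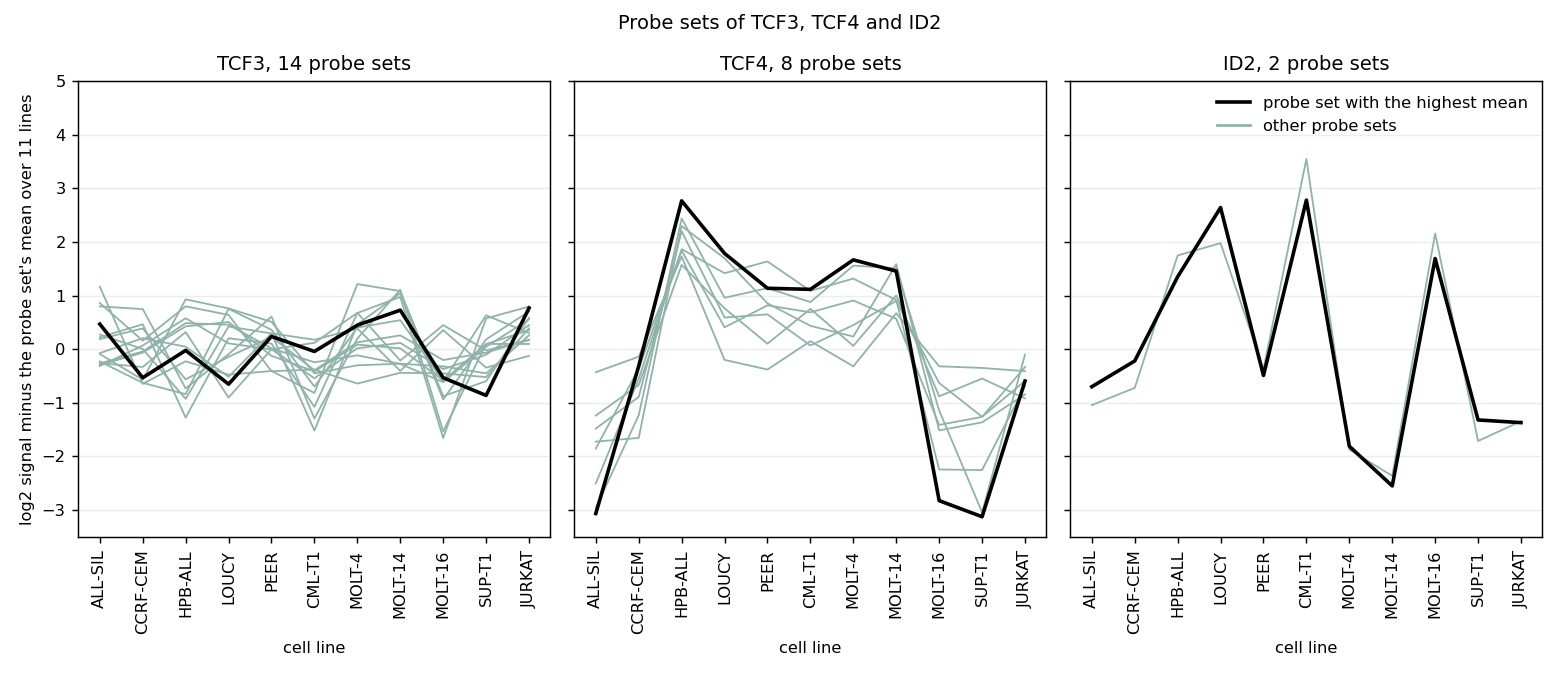
Each probe set of TCF3, TCF4 and ID2 as log2 signal minus its own mean over the 11 lines, with the probe set used in black and the others in green, joined only to guide the eye. Most TCF4 and both ID2 probe sets run together, with low TCF4 in ALL-SIL and SUP-T1. Most TCF3 probe sets do not follow the one used.

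All 3 ID genes varied strongly, each in its own pattern of lines. ID1 was 9.25 in JURKAT, 9.22 in SUP-T1, 9.19 in ALL-SIL, 8.27 in MOLT-4 and MOLT-14, 7.86 in CML-T1, 7.45 in HPB-ALL, 6.91 in PEER, 4.90 in CCRF-CEM, 4.31 in LOUCY and 2.96 in MOLT-16. JURKAT, SUP-T1 and ALL-SIL were at the upper end, and MOLT-16 was at background, with a value below the lower quartile of the array. CCRF-CEM and LOUCY were close to their array medians of 4.7 and 4.73.

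ID2 was 10.23 in CML-T1, 10.09 in LOUCY, 9.14 in MOLT-16, 8.80 in HPB-ALL, 7.23 in CCRF-CEM, 6.96 in PEER, 6.75 in ALL-SIL, 6.13 in SUP-T1, 6.08 in JURKAT, 5.64 in MOLT-4 and 4.90 in MOLT-14. A gap of 1.57 separated the first 4 lines from the rest. The second probe set, 201566_x_at, gave the same 4 lines the highest levels (8.81 in CML-T1, 7.42 in MOLT-16, 7.24 in LOUCY and 7.01 in HPB-ALL, with 4.89 as the next value) and correlated with the first at 0.98 (n = 11). Of these 4 lines, MOLT-16, CML-T1 and HPB-ALL are the lines with poly-A controls at background. ID2 averaged 9.39 (8.80 to 10.23) there and 6.72 (4.90 to 10.09) in the other 8 lines, in which LOUCY alone was above 7.23, and the part of the controls in this was not tested.

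ID3 was 10.31 in JURKAT, 10 in MOLT-14, 9.75 in ALL-SIL, 9.65 in PEER, 8.88 in MOLT-4, 8.32 in MOLT-16, 8.29 in LOUCY, 7.46 in CML-T1, 7.29 in CCRF-CEM, 6.95 in HPB-ALL and 3.91 in SUP-T1. SUP-T1 was 3.04 below the next line and under its array median of 4.72, and the other 10 lines expressed ID3. The ranges were 6.29 for ID1, 5.33 for ID2 and 6.40 for ID3, larger than those of 98.0%, 96.0% and 98.1% of all genes.

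A member stood out in a line where it lay at least 2 log2 units from the median of the other 10 lines and the larger of its level and that median was above the array median. By this measure, on the probe sets used, 4 of 6 members stood out in at least 1 line, and 17.6% of all genes did. There were 13 such pairs of gene and line, 5 higher and 8 lower, in 9 of the lines. TCF4 was low in ALL-SIL, MOLT-16 and SUP-T1 and high in HPB-ALL. ID1 was low in CCRF-CEM, LOUCY and MOLT-16. ID2 was high in LOUCY, CML-T1 and MOLT-16 and low in MOLT-14, and ID3 was low in SUP-T1 and high in JURKAT. TCF3 and TCF12 stood out nowhere on the probe sets used. On other probe sets, TCF12 was low in MOLT-14 (215611_at, 3.92 against a median of 6.92 in the other lines). TCF3 was low in MOLT-16 (213809_x_at, 3.15 against 5.15). Over any probe set of the members, 18 pairs stood out.

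Read by line on the probe sets used, the combinations differed. JURKAT held the highest TCF3, TCF12, ID1 and ID3 of all lines with a low ID2. SUP-T1 held the lowest TCF3 and ID3 and low TCF4 with the second highest ID1. MOLT-16 combined the lowest ID1 and low TCF4 with high ID2, and LOUCY combined high ID2 and TCF4 with low ID1. No line was below its array median for more than 1 of the ID genes.

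Across the 11 lines, some members rose and fell together, described here without a test because the points share the array platform and its normalization and are lines of different origin. TCF3 and ID3 correlated at 0.79 (Spearman 0.84, n = 11), at 0.68 without JURKAT and SUP-T1, the 2 lines farthest from the median of TCF3, and at 0.85 in the 8 lines with poly-A controls above background. This rests on the probe set, since the other 13 TCF3 probe sets correlated with ID3 at −0.06 to 0.59, with a median of 0.16. ID1 and ID2 ran in opposite directions at −0.59 (Spearman −0.69), at −0.30 without LOUCY and MOLT-16, at −0.77 in the 8 lines, and at −0.54 with the second ID2 probe set. It was weak only without LOUCY and MOLT-16 together, the lines farthest from the median of ID1. With each line left out in turn it ran from −0.76 (without CML-T1) to −0.49 (without LOUCY).

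Other pairs changed in size, and some in sign, with the lines used. TCF3 and ID1 correlated at 0.58 (Spearman 0.52), and at 0.88 without JURKAT and SUP-T1, where SUP-T1 with low TCF3 and high ID1 departs from the other lines. Leaving out each line in turn gave 0.50 to 0.90 for this pair. The other 13 TCF3 probe sets correlated with ID1 at −0.23 to 0.60, with a median of 0.21. TCF3 and ID2 correlated at −0.54 (Spearman −0.61), at −0.76 without JURKAT and SUP-T1, and at −0.78 to −0.43 with each line left out in turn. For the other 13 TCF3 probe sets this was −0.77 to 0.30 with a median of −0.28, and 9 of them had the same sign. ID1 and ID3 correlated at 0.04 (Spearman 0.31). ID2 and ID3 correlated at −0.24 (Spearman −0.52), and at −0.70 without SUP-T1 alone. TCF4 and TCF12 correlated at −0.04, and at −0.42 in the 8 lines with poly-A controls above background. TCF4 and ID1 correlated at −0.04, at −0.52 in the same 8 lines and at 0.49 without ALL-SIL and SUP-T1, so that no direction can be given. TCF4 correlated with ID3 at 0.22 (0.45 in the 8 lines, −0.14 without ALL-SIL and SUP-T1) and with ID2 at 0.17 (0.17 and −0.04). TCF12 correlated with ID1 at 0.43 (0.59 in the 8 lines), with ID2 at 0.11 (−0.28) and with ID3 at −0.15 (0.0033). In all, 15 pairs were examined.

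**Figure D3:**
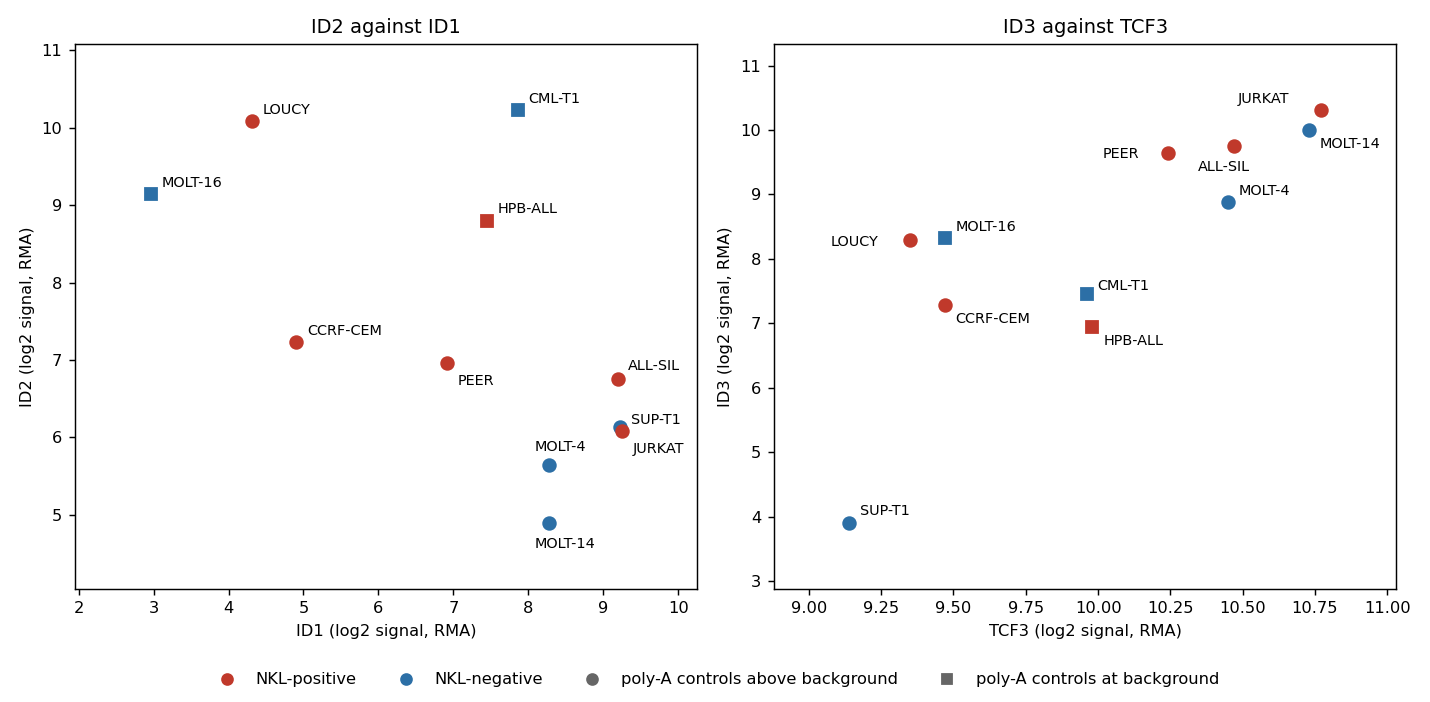
ID2 against ID1 (left) and ID3 against TCF3 (right) as log2 signals, 1 point per line, with red for NKL-positive and blue for NKL-negative lines and squares for lines whose poly-A controls were at background. LOUCY and MOLT-16 combine high ID2 with low ID1, and SUP-T1 is lowest in both TCF3 and ID3 on the probe sets used.

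The genes whose profile was most like that of each member were taken from 4045 genes with a mean above the median of gene means and a range of at least 2, by Pearson correlation over the 11 lines. For TCF3 they were GVQW3 (0.84), ID3 (0.79) and HTATSF1 (0.77). For TCF4 they were FZD1 (0.86), CKAP4 (0.86) and DAPK1 (0.81), and for TCF12 they were SAMD8 (0.92), ZBTB10 (0.91) and SLC3A2 (0.88). For ID1 they were LOC105379499 (0.90), IP6K2 (0.90) and SALL2 (0.89). For ID2 they were AMMECR1 (0.93), CARNMT1 (0.89) and BCL2 (0.88), and for ID3 PUS3 (0.90), GBP1 (0.88) and ZNF43 (0.87). ID3 was the only member among the nearest genes of another member. TCF3, with a range of 1.63 on the probe set used, was not among the genes searched. Ranked by Spearman instead, 0 of 3 genes were shared for ID1 and ID3 and 1 of 3 for TCF4 and TCF12. The highest of 4045 correlations over 11 lines can be large without any relation between the genes, and a relation was not tested.

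The design asks whether NKL-positive and NKL-negative T-ALL cell lines differ, and the 6 genes were compared between the 5 lines of each group. None of them differed beyond the spread between lines. ID1 averaged 6.55 ± 1.98 (SD, n = 5) with NKL expression and 7.32 ± 2.49 without it. ID2 averaged 7.97 ± 1.44 and 7.21 ± 2.34, and ID3 averaged 8.39 ± 1.30 and 7.71 ± 2.32, in the same order. TCF3 was 9.90 ± 0.48 and 9.95 ± 0.66, TCF4 6.87 ± 2.27 and 6.06 ± 2.41, and TCF12 10.34 ± 0.63 and 10.48 ± 0.57.

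The mean differences, NKL-positive minus NKL-negative, were −0.05 (SE 0.35) for TCF3, 0.80 (SE 1.30) for TCF4 and −0.15 (SE 0.36) for TCF12. They were −0.76 (SE 1.24) for ID1, 0.76 (SE 1.08) for ID2 and 0.67 (SE 1.04) for ID3. The groups of every member overlapped. By limma with Benjamini-Hochberg adjustment 0 of 6 members were called, with adjusted p from 0.983 to 0.998, and 0.00916% of all probe sets were called. At an unadjusted p under 0.05, limma gave 0 of 6 members against 4.9% of probe sets. The exact permutation test, two-sided, gave p = 0.540 (ID2) to 0.929 (TCF3). The groups of 0 of 6 members and of 0.905% of all genes did not overlap. Members were split into 3 higher and 3 lower with a median of 0.31, and all genes into 9849 higher and 9926 lower with a median of −0.002. For TCF4 and the ID genes the SE exceeded 1 log2 unit, so that differences of that size were not detectable with 5 lines a group.

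Several differences turned on single lines. ID3 was 0.67 higher in NKL-positive lines, and −0.28 without SUP-T1. The TCF4 difference was 1.69 without ALL-SIL and 0.11 without SUP-T1. The ID1 difference was −1.85 without MOLT-16 and −0.20 without LOUCY. ID2 moved with the poly-A controls. Its difference was 2.20 (SE 0.81) in the 4 NKL-positive and 3 NKL-negative lines whose controls were above background, with a limma adjusted p of 0.618. The groups did not overlap in these lines, nor did those of 7.88% of all genes. It was 2.41 (SE 0.77) without CML-T1 and MOLT-16, with a limma adjusted p of 0.562. In the lines with controls at background, ID2 was 8.80 in HPB-ALL (NKL-positive) and 10.23 and 9.14 in CML-T1 and MOLT-16 (NKL-negative). In the same 7 lines the difference was −2.26 (SE 1.10) for ID1, with a limma adjusted p of 0.70, and 1.15 for ID3, −0.11 for TCF4, −0.22 for TCF3 and −0.22 for TCF12.

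Among all 30 probe sets of the members, 21 were higher and 9 lower in NKL-positive lines, and 0 were called. The 8 of TCF4 were all higher, the 4 of TCF12 were 1 higher and 3 lower, and the 14 of TCF3 were 9 higher and 5 lower. Of the 30, 2 had an unadjusted p under 0.05, both of TCF3, beside 4.9% of all probe sets. Probe set 209151_x_at differed by 0.90 (SE 0.25; limma adjusted p = 0.837) and 213730_x_at by 0.67 (limma adjusted p = 0.981).

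**Figure D4:**
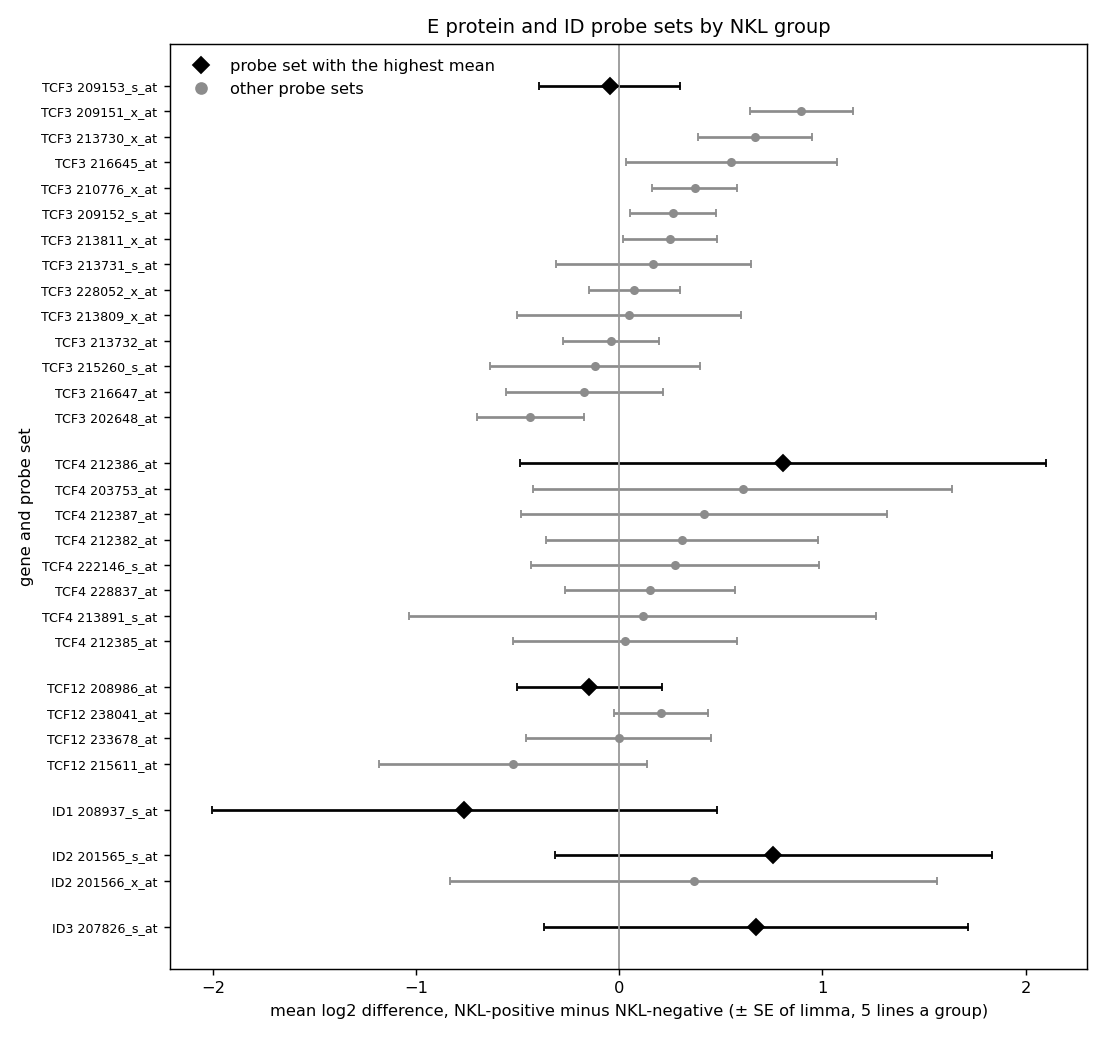
Mean log2 difference between 5 NKL-positive and 5 NKL-negative lines for the 30 probe sets of the 6 genes (horizontal axis), with bars of 1 SE from limma, black diamonds for the probe set used and grey points for the others. All black bars cross 0, and the largest TCF3 value, 0.90, comes from a probe set other than the one used.

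Genes that act with, under or over the E proteins were read from 7 lists. Of 59 measured genes 36 were higher and 23 lower in NKL-positive lines, with a median of 0.17. limma called 0 of them, and 4 of 59 had an unadjusted p under 0.05, as had 5.26% of all genes. The bHLH partners and LMO bridging proteins, which form DNA-binding complexes with E proteins in T-ALL, were 9 higher and 4 lower, with 0 of 13 called and a median of 0.12. TAL1 differed by −1.48 (SE 1.41; of its 4 probe sets, 3 had the opposite sign) and LYL1 by 1.47 (SE 0.91). LMO1 (at most 5.44 in any line) and LMO2 differed by 0.43 and 0.17. LMO3 (at most 5.0) differed by 0.70, but of its 4 probe sets 2 had the opposite sign, and their mean differed by 0.14. TAL1 was expressed in JURKAT (10.74), MOLT-4 (9.0), CCRF-CEM (8.92) and MOLT-16 (7.82) and was 5.23 or less elsewhere. In those 4 lines TCF3 was between 9.47 and 10.77 and TCF12 between 10.01 and 11.82. In the 7 lines with poly-A controls above background LMO1 differed by 0.16 and LMO2 by 1.10. LMO2 was 9.93 in MOLT-16, 9.64 in MOLT-14, 9.18 in PEER, 8.88 in CCRF-CEM and 8.41 in LOUCY.

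The cofactors of E proteins were 4 higher and 2 lower, with 0 of 6 called. They include the acetyltransferase KAT2B (0.63) and the corepressors RUNX1T1 (−0.47) and CBFA2T3 (−0.43). In the 7 lines with poly-A controls above background KAT2B differed by 1.89 (SE 0.39; limma adjusted p = 0.37) and RUNX1T1 by −0.77. Of 12 genes known as E protein targets in lymphocyte development, 7 were higher and 5 lower, with 0 called and a median of 0.30. The pre-TCR gene PTCRA differed by −0.12 (SE 0.82), the recombinase genes RAG1 and RAG2 by −1.74 (SE 1.72) and −1.70 (SE 1.40), and CD4 by 1.42 (SE 1.08). IGLL1, a surrogate light chain gene, differed by 4.76 (SE 1.17; limma adjusted p = 0.738). RAG1 (11.26), RAG2 (9.40) and PTCRA (9.91) were highest in SUP-T1, the line with the lowest ID3 and TCF3 on the probe sets used. Other targets went the other way there, with IGLL1 the lowest of all lines (3.55) and DNTT (6.32) below its median of 9.49. A relation of these targets to ID3 was not tested. In the 7 lines with poly-A controls above background the differences were −1.62 (SE 0.63; limma adjusted p = 0.636) for PTCRA, −3.49 for RAG1, −3.02 for RAG2 and 0.38 for CD4. Of the 3 PTCRA probe sets, 2 had the opposite sign over all 10 lines.

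Of 14 genes in signals that lead to ID genes, 9 were higher and 5 lower, with 0 called, 2 at an unadjusted p under 0.05 and a median of 0.32. SMAD1, which passes BMP signals to the nucleus, was 8.89 in PEER, 8.86 in ALL-SIL, 8.77 in HPB-ALL, 8.51 in LOUCY and 8.02 in CCRF-CEM. In NKL-negative lines it was 7.54 in MOLT-14, 7.50 in MOLT-4, 4.13 in CML-T1, 3.82 in MOLT-16 and 3.79 in SUP-T1, and it was 8.15 in JURKAT. The 5 lines of each group did not overlap, nor did those of 0.905% of all genes. The difference was 3.25 (SE 0.80), and it did not pass adjustment (limma adjusted p = 0.728). In the 7 lines with poly-A controls above background it was 2.29 (SE 0.89; limma adjusted p = 0.634). The receptor-regulated SMAD9 differed by 0.50, with 1 of its 2 probe sets opposite in sign and a mean over both of 0.072. EGR1, an immediate early factor that links TCR signals to ID3, differed by −2.66 (SE 1.07; limma adjusted p = 0.981).

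The genes for turnover of E and ID proteins were 4 higher and 1 lower, with 0 of 5 called and a median of 0.45. SKP2, a subunit of a ubiquitin ligase, differed by 0.85 (SE 0.31; limma adjusted p = 0.981), ASB2 by 0.65 and USP1, a deubiquitinase of ID proteins, by 0.34. Innate lymphoid genes tied to ID2 were 2 higher and 6 lower, with 0 of 8 called and a median of −0.22. NFIL3, an activator of ID2, differed by 1.41, EOMES by −0.89 and KLRB1 by −0.59. In the 7 lines with poly-A controls above background ASB2 differed by 0.10, USP1 by −0.0783, EOMES by −0.25 and KLRB1 by 0.13. KLRB1 was 7.06 in MOLT-16 and 4.43 or less in the others, whereas NCAM1 of the same list was lowest in MOLT-16 (3.76). Outside this list, the NK-cell marker GNLY, a cytotoxic granule gene of NK-cells and T-cells, was 10.38 in MOLT-16. In CML-T1, LOUCY and HPB-ALL, the other lines with high ID2, 0 of 4 NK-cell markers were above the array median. A relation of these genes to ID2 was not tested. The fourth ID gene, ID4, was between 3.40 and 5.54 in all lines and differed by 0.61, and of its 5 probe sets 4 had the opposite sign.

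**Figure D5:**
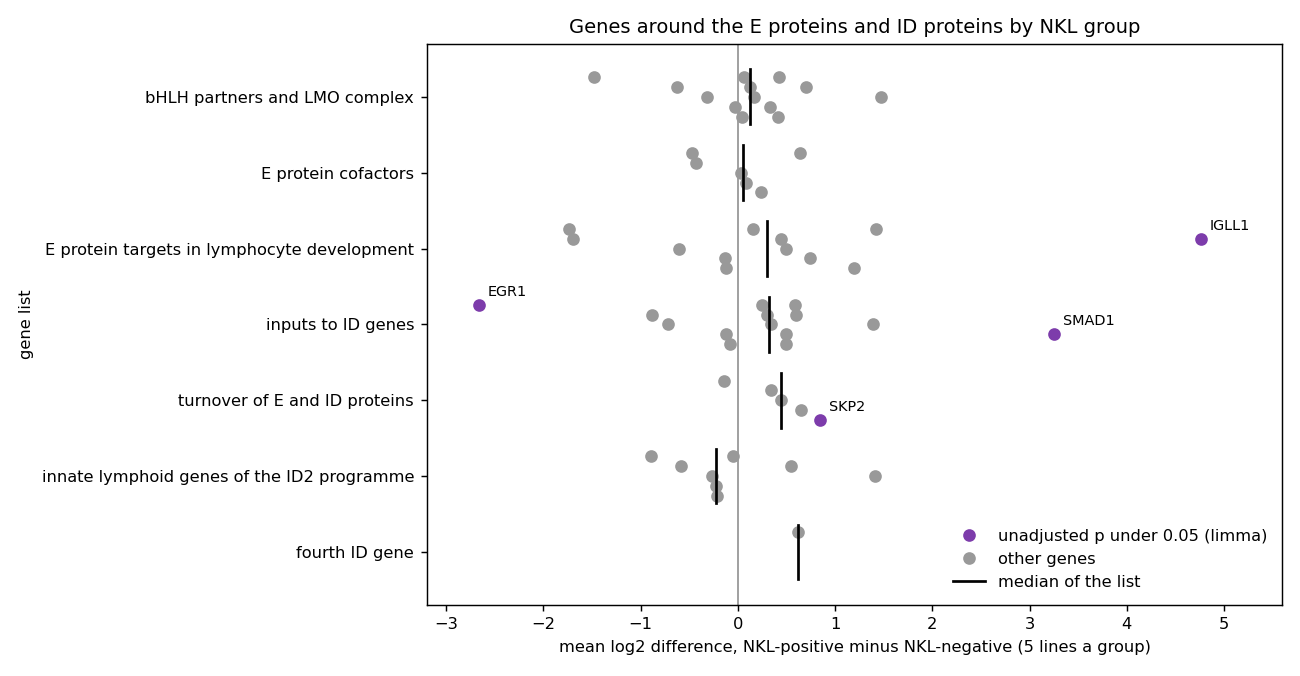
Mean log2 difference between 5 NKL-positive and 5 NKL-negative lines (horizontal axis) for the 59 genes of the 7 lists (vertical axis), 1 point per gene, with a black bar at the median of each list. Purple points are the 4 genes with an unadjusted p under 0.05 by limma, and none passed adjustment.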

How the data were processed

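RNA of the 11 lines was hybridized at another institute, 1 array a line, and the data were provided to the authors. The deposited log2 values were made with RMA, which corrects background, normalizes by quantiles and summarizes each probe set, and no scaling was added here. Quantiles give all arrays 1 distribution, so that a shift in total RNA is not visible, and the number of arrays limits precision. Besides 62 control probe sets, which were dropped, 41091 probe sets carried 1 gene symbol, 1801 several and 11721 none. Groups followed the labels. Group differences came from limma 3.58.1 (R 4.3.3) over 54613 probe sets, with empirical Bayes moderation, no covariates and a Benjamini-Hochberg threshold of 0.05, and the procedure was tested on simulated data. The members and lists were chosen with earlier results of these data known. Named from each list were the 3 genes with the smallest p, besides TAL1, LYL1, LMO2, PTCRA, RAG1, RAG2, SMAD1, EGR1 and ID4. RUNX1, BMPR1A and EGR2 were not analysed here. Alternatives were other sets of lines, a term for poly-A controls, array centring on the median, repeated quantile normalization, a filter on dim probe sets, a floor at the lower quartile, an intensity trend or array weights in limma, other probe sets and exact permutation. For genes of the lists, and for correlations by probe set, they were added after seeing the data.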

Additional observations from a re-analysis of the deposited data

Results flagged for a closer look

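Within the NKL groups, here with JURKAT among the NKL-positive lines, 58 sets of values were examined for a line far from the others of its group. Of these sets chance would pick about 1 in 20 if they were independent and normally distributed, and 10 were found. The sets share the same lines and some hold values near background, so that the 10 cannot be judged against that share. The measure is the gap of the highest or lowest line to the nearest other line, as a share of the whole range of the group. Among the members it was found for ID1 alone, where MOLT-16 (2.96) lay below the nearest NKL-negative line (7.86) by 0.783 of the range. The MOLT-16 value is at background, below the lower quartile of its array (3.52).

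In the other genes, HPB-ALL was the highest NKL-positive line for PTCRA (8.56, share 0.865), ASB2 (6.48, share 0.676) and USP1 (13.01, share 0.631). MOLT-4 was the lowest NKL-negative line for NFIL3 (3.53, share 0.779) and SMAD9 (3.67, share 0.802), and ALL-SIL the lowest NKL-positive line for NFIL3 (6.31, share 0.649). The NFIL3 value in MOLT-4 was below the lower quartile of its array (3.60). RUNX1T1 was lowest in LOUCY (3.91, share 0.653) among NKL-positive and in CML-T1 (3.79, share 0.718) among NKL-negative lines. Both RUNX1T1 values were below their array medians (4.73 and 4.72). KLRB1 was highest in MOLT-16 (7.06, share 0.882).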

How the results depend on the processing

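Of 162 alternatives for the 6 members, 138 kept the direction with no call, 24 turned the direction, and none was called. Not all of the 138 could turn it. Exact permutation, the intensity trend and the filter on dim probe sets leave the difference itself unchanged. So does the mean over probe sets for ID1 and ID3, which have a single probe set. The lowest limma adjusted p was 0.562 (ID2), 0.692 (ID1), 0.837 (TCF3), 0.847 (TCF12), 0.862 (ID3) and 0.882 (TCF4). TCF3 turned to 0.10 with JURKAT, to 0.18 as the mean over its probe sets and to 0.90, 0.67, 0.55, 0.37, 0.26, 0.25, 0.17, 0.074 and 0.046 with single other probe sets. TCF4 turned to −0.11 in the lines with poly-A controls above background and to −0.21 with JURKAT added to them. TCF12 turned to 0.10 with JURKAT, 0.0427 without CML-T1 and MOLT-16, 0.0156 with a term for the poly-A controls, 0.13 in the lines with controls and JURKAT, and 0.21 with 1 other probe set. With each line left out, TCF3 ran from −0.25 to 0.15, TCF4 from 0.11 to 1.69, TCF12 from −0.41 to 0.016, ID1 from −1.85 to −0.20, ID2 from 0.18 to 1.51 and ID3 from −0.28 to 1.24. LMO2 turned to −0.47 with JURKAT and −0.0358 with the poly-A term, and ran from −0.71 to 0.99 with lines left out. PTCRA turned to 0.0807 over its probe sets (−0.62 to 0.55 with lines left out), KLRB1 to 0.10 without CML-T1 and MOLT-16 and 0.13 in the lines with controls (−0.77 to 0.0175). In these lines USP1 turned to −0.0783. With JURKAT added, TAL1 turned to 0.12, CD4 to −0.11, USP1 to −0.0333 and EOMES to 0.0227.

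The count of called probe sets was 5, and 0 with JURKAT (2553 at an unadjusted limma p under 0.05). It was also 0 by exact permutation (2723 at an unadjusted p under 0.05), whose smallest p did not pass adjustment. It was 10 without CML-T1 and MOLT-16, 3 with the poly-A term, 3 in the lines with controls, 1 with JURKAT added, 3 with the floor, and 3 (without CML-T1, HPB-ALL or PEER) to 13 (without LOUCY) with each line left out. The 179 genes without overlap became 83 with JURKAT, 1011 without CML-T1 and MOLT-16, 1559 in the lines with controls, 908 with JURKAT added, and 286 to 451 with each line left out, where fewer lines have to separate. Pairs that stood out numbered 33 at a gap of 1 in place of 13. The cause was not tested. No paired analysis was possible because no line belongs to both groups.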
